A study of Mus musculus with 2 samples.

Results

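Retained-intron transcripts are annotated RNAs of a gene that keep sequence which its protein-coding transcripts splice out. The deposited transcript table gives 21710 transcripts this biotype among 142438, and the 5553 of them (25.6%) with 20 or more estimated counts over both libraries are described here. A further 4635 were at 0 in both libraries and 11522 had 1 to 19 counts. The 5553 transcripts belong to 3493 genes, of which 2231 have 1 such transcript, 773 have 2 and 489 have 3 or more. They were chosen on the summed count of both libraries, so their levels are a description. The sum does not fix a direction between the libraries, except that a transcript with 20 or more counts in 1 library and 0 in the other must differ; 23 were at 0 in control and 29 at 0 in stretched. Icam2 (10 and 10 counts, control and stretched) and Ro60 (17 and 3) lay just inside the threshold, and transcripts of Nsf (13 and 6) and Bbx (6 and 13) just outside it.

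The cells were RAW246.7, as the submitters spell the name of a mouse macrophage-like line grown in culture, although the tissue label reads synovial membrane. The control library came from cells kept for 24 h under a strain that the labels call normal without giving its value, and the stretched library from cells kept for 24 h under 20% elongation; no genetic change or drug is named for either. Each condition had 1 library, so variation between cultures was not measured and no p-value is given. The control and stretched libraries held 14769100 and 13391645 estimated counts of polyadenylated RNA. The summed FPKM of 10 macrophage markers was 2763 and 3939, of which Lyz2 gave 1320 and 2289. None was at 0, but Mrc1 had only 4 and 1 counts. Spi1, Fcgr1, Ptprc and Mrc1 had lower FPKM in stretched and the others higher. The 10 fibroblast and synovial lining markers summed to 0.274 and 0.303 FPKM, with 6 at 0 in both libraries. The 8 endothelial and T cell markers summed to 6.38 and 5.08 FPKM, of which Lck gave 5.92 and 4.59. FPKM is the fragment level per kilobase of transcript, scaled to depth. In such bulk libraries, fewer cells of a type and less RNA per cell cannot be told apart.

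Splicing removes introns between a 5′ splice site that nearly always begins with GT and a 3′ splice site that ends with AG, mostly by the major spliceosome, in which U1 and U2 small nuclear ribonucleoproteins (snRNPs) and U2AF recognise these sites. SR proteins and the hnRNP proteins bind exons and introns and change which sites are used, and SR proteins are themselves phosphorylated by the SRPK and CLK kinases. A transcript with an intron left in may be held in the nucleus, and one that reaches the cytoplasm with a stop codon early in the message is a usual target of nonsense-mediated decay. Intron retention has been described during the maturation of granulocytes and the activation of macrophages.

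The introns that distinguish 8 of the transcripts named by size of change or by abundance are printed here, because in these models a single short intron is all, or in Cnot3 80 of 99 bases, of what lies outside the coding exons. Each lies whole inside an exon of the retained-intron model and between coding exons of the gene's most abundant protein-coding model. Sequences are those of GENCODE M21 transcripts (GRCm38), on the gene's strand, 5′ to 3′; capitals mark the splice-site dinucleotides at the ends and the first stop codon met when the frame of the upstream coding exon is read on into the intron.
Tpi1: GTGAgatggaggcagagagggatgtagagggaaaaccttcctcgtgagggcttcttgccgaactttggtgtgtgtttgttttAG
Cnot3: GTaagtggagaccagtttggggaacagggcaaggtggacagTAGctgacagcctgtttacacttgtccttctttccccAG
Rint1: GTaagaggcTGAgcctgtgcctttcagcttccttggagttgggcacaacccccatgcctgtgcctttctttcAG
Zfp687: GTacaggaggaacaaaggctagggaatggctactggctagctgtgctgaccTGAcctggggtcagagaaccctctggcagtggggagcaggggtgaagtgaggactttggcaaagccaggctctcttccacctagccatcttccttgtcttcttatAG
Shisa5: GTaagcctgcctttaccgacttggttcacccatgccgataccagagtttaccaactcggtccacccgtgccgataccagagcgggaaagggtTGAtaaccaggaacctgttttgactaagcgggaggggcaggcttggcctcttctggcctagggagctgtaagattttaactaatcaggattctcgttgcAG
Tbc1d20: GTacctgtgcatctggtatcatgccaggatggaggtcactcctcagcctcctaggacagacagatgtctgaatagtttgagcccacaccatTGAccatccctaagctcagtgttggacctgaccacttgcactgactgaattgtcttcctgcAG
Eef1a1: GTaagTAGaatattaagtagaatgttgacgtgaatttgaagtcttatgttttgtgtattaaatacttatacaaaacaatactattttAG
Rpl10a: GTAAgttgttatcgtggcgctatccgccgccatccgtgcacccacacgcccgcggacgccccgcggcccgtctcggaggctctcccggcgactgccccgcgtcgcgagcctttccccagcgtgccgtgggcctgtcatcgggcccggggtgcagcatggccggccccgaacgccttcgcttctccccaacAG
The Tpi1 intron is the 84-base intron 2 of 6 (chromosome 6, minus strand), and a stop follows in frame from its base 2. In Cnot3 (intron 11 of 17, 80 bases, chromosome 7, plus strand) the stop begins at base 42 and in Rint1 (8 of 14, 74 bases, chromosome 5, plus strand) at base 10. In Zfp687 (5 of 8, 158 bases, chromosome 3, minus strand) it begins at base 52, in Shisa5 (4 of 5, 193 bases, chromosome 9, plus strand) at base 93 and in Tbc1d20 (4 of 7, 154 bases, chromosome 2, plus strand) at base 92. The Eef1a1 intron (5 of 7, 89 bases, chromosome 9, minus strand) is rich in A and T, with 23.6% G and C and a stop from base 6. The Rpl10a intron (1 of 5, 192 bases, chromosome 17, plus strand) has 72.4% G and C and a stop from base 2. The short introns of BC003965, Pgghg and Rps13 have the same features but are not printed. In BC003965 and Rps13 a stop follows from base 2, whereas the 155-base Pgghg intron held no in-frame stop.

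These 8 introns are examples of a larger set. Of the 5455 transcripts whose identifier and length matched GENCODE M21, 2656 (48.7%) held at least 1 whole intron of a protein-coding model inside an exon, 1799 of them exactly 1 and at most 11. A further 2690 (49.3%) held no whole intron and instead began or ended inside one, and 109 did neither, so the biotype name covers models that stop inside an intron about as often as whole retained introns. The whole introns numbered 3663 distinct ones, with a median length of 319 bases (quartiles 136 and 800), against 1162 (386 and 2831) for 47177 other introns of the same genes. GT to AG ends were found in 3605 (98.4%), GC to AG in 38 and AT to AC in 8, and 24 began with GTATCCTT or ATATCCTT, the 5′ splice site letters typical of the minor spliceosome. The introns had a median of 50.3% G and C against 52.2% for the rest of the same transcripts. Among introns of coding models with 3 or more introns, 6.65% were the first and 6.85% the last intron of the model, where an even spread would give 11.2% each. Read in the frame of the upstream coding exon, 3223 of 3539 introns (91.1%) held a stop codon, at a median position of base 35, and of the 316 without one 60 had a length that is a multiple of 3.

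**Figure D1:**
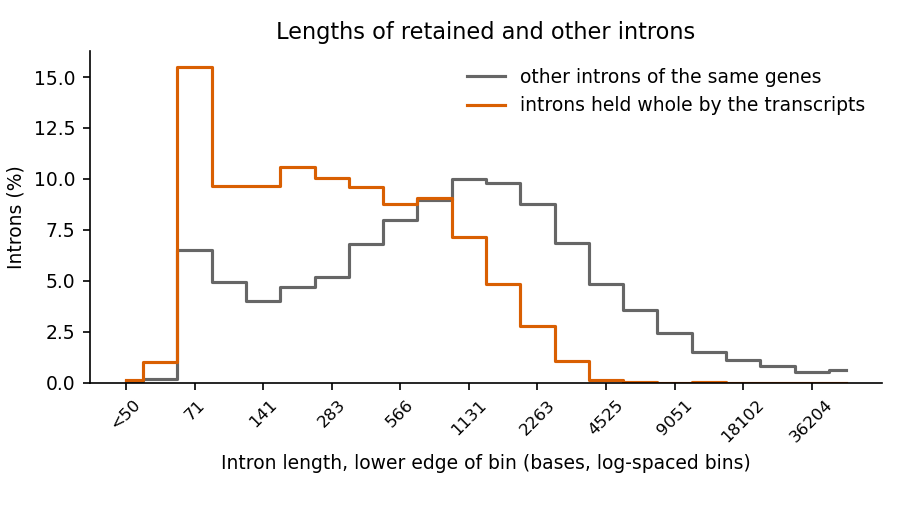
Percent of introns (vertical axis) by intron length in log-spaced bins (horizontal axis, bases) for the 3663 distinct introns held whole by retained-intron transcripts (orange) and 47177 other introns of the same genes (grey). The median is 319 bases for the retained introns and 1162 for the others.

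As a class the retained-intron transcripts took nearly equal parts of both libraries. All 21710 together took 618249 counts in control, 4.186% of the library (95% Wilson interval 4.176 to 4.196), and 559087 in stretched, 4.175% (4.164 to 4.186). Transcripts annotated for nonsense-mediated decay took 1.81% and 1.79%, and protein-coding transcripts 83.9% and 85.2%. The counting intervals of the retained-intron share overlap, though each value lies just outside the interval of the other. Per length, the class held 5.07% and 5.19% of summed FPKM.

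Single transcripts were mostly scarce. The 5553 had a median of 29 counts in control (quartiles 16 and 72) and 27 in stretched (14 and 63), 173 had 1000 or more over both libraries, and their median level was 1.23 and 1.26 FPKM, against 4.38 and 4.60 for protein-coding transcripts past the same threshold. The share of a retained-intron transcript, its count as a percent of itself plus the summed protein-coding counts of its gene, had a median of 3.70% in control and 3.62% in stretched over the 5462 transcripts with such a sum; 62 belong to genes with no protein-coding transcript and 29 to genes whose coding transcripts were at 0. It was above 50% in 310 transcripts in control and 305 in stretched, of which 196 were above it in both. Gas5, a non-coding host gene of small nucleolar RNAs, had the most retained-intron transcripts, 13, of which the most abundant had 719 and 591 counts.

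Some of the most abundant retained-intron transcripts come from genes with very high output. Fth1, which encodes the ferritin heavy chain that stores iron, had the highest count: transcript ENSMUST00000235129 held 33469 counts in control and 40878 in stretched, 56.6% and 58.3% of itself plus the coding sum of 25635 and 29203. Its second retained-intron transcript had 6666 and 9946 counts. Eef1a1, a translation elongation factor, had 9451 and 10874 counts in the transcript with the 89-base intron shown above, 5.37% and 8.30% beside 166552 and 120144 coding counts. Rsrp1, an arginine- and serine-rich protein gene, had 4277 and 6468 counts, 96.6% and 93.5%, and Tmed7, a cargo receptor of the early secretory pathway, 3231 and 3114, 94.8% and 93.1%. These 5 transcripts differed by less than 2-fold in count between the libraries, and none had a share odds ratio of 2 or more in either direction. Fth1, Eef1a1 and the ribosomal protein genes below have many processed copies in the mouse genome, and the sources used here do not say how reads were divided between such copies.

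To compare the libraries, a transcript was called higher or lower in stretched when its scaled count differed by at least 2-fold and the 95% counting interval of the ratio excluded 1. By this rule 715 retained-intron transcripts (12.9% of 5553) were higher and 826 (14.9%) lower, beside 13.1% higher and 13.1% lower over all 29251 transcripts past the threshold, and 3.12% and 1.94% over 12772 genes. By transcript class the count rule called 21.5% higher and 20.9% lower for nonsense-mediated decay, 14.8% and 16.7% for processed transcripts and 12.7% and 12% for protein-coding transcripts. The median log2 difference was -0.054, against -0.014 for all transcripts. The share rule took the odds of the retained-intron count against the coding sum, which does not depend on the scaling of the libraries, and called an odds ratio of at least 2 whose exact interval excluded 1. It called 788 transcripts (14.4% of 5462) higher in share and 899 (16.5%) lower, with a median log2 odds ratio of -0.071. The same rule called 23.3% higher and 24.8% lower among 1652 nonsense-mediated decay transcripts, 15.3% and 18.7% among 1238 processed transcripts, and 20.9% and 21.2% among 15267 protein-coding transcripts set against the other coding transcripts of their gene. By share, the retained-intron percentages are no higher than those of these other classes, whereas by count the 14.9% lower is above the 12% of protein-coding transcripts. The counting interval covers neither variation between cultures nor the division of reads among overlapping models.

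**Figure D2:**
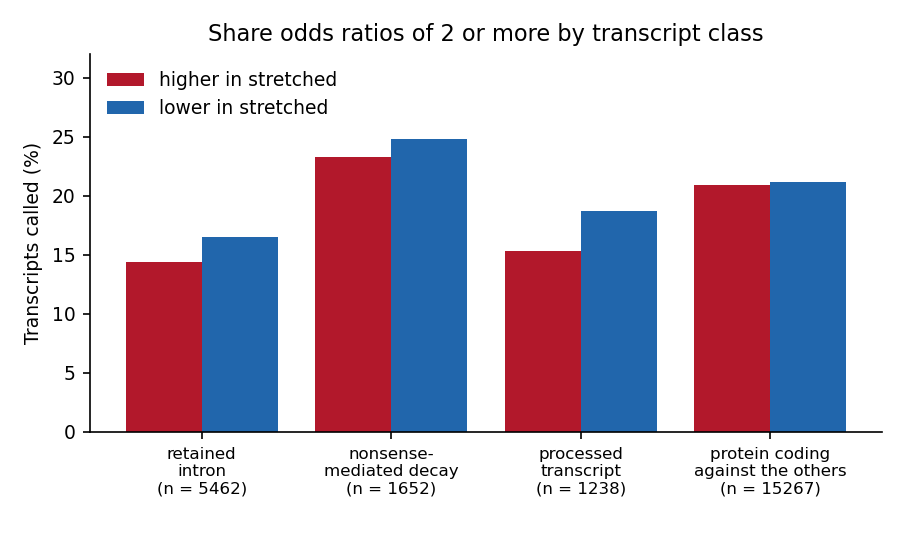
Percent of transcripts (vertical axis) whose share odds ratio was at least 2 in either direction with a 95% counting interval excluding 1, by transcript class, with the number compared under each class. Retained-intron transcripts (14.4% higher in stretched, 16.5% lower) have the lowest bar in each direction and nonsense-mediated decay transcripts the highest (23.3% and 24.8%).

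Gene totals differed little both for transcripts called in share and for all compared. Of the 1687 transcripts called in share, 1602 (95.0%) belonged to genes whose total count differed by less than 1.5-fold, as did 95.8% of all compared, and in 1134 (67.2%) the log2 differences of transcript and coding sum had opposite signs, against 49.7% of all compared. A large odds ratio between the pair favours opposite signs, so this is a description of the called set. A total of 629 transcripts were higher in count while the coding sum was called neither way, 41 were higher together with it and 34 while it was lower; 762 were lower while it was called neither way, 43 while it was higher and 11 together with it. The Pearson correlation of the log2 differences of transcript and coding sum was -0.108 over the 5462 transcripts, which share both libraries and the division of each gene's reads. In 61 of the 270 genes with 2 or more transcripts called in share, at least 1 was higher and another lower.

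**Figure D3:**
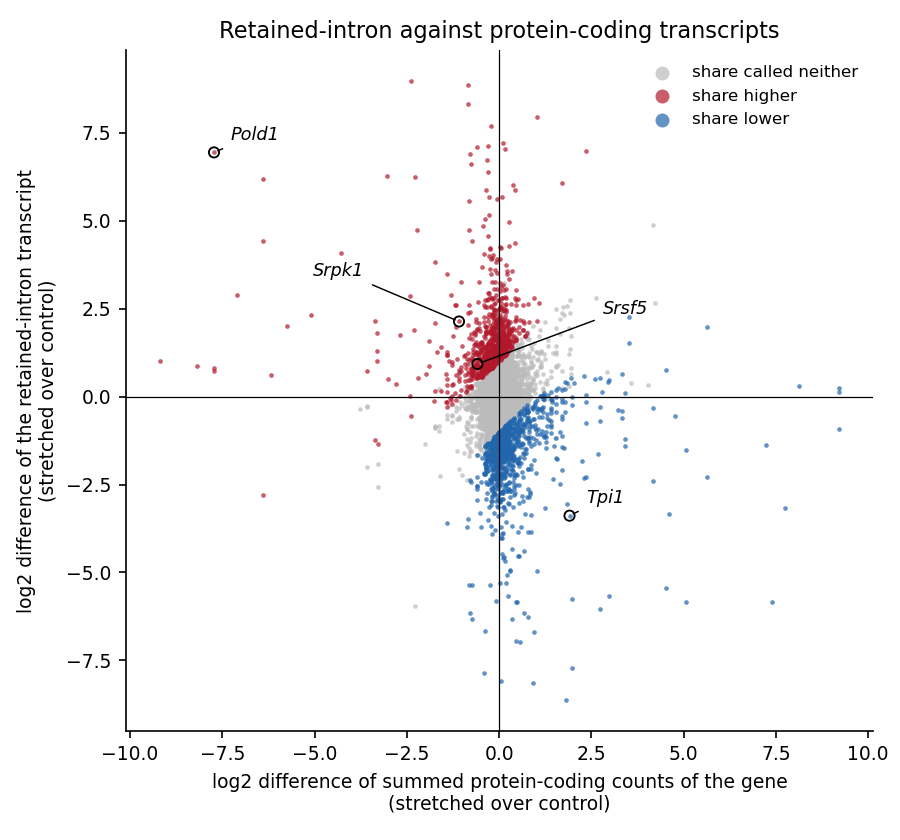
Log2 difference (stretched over control) of each of 5462 retained-intron transcripts (vertical axis) against that of the summed protein-coding counts of its gene (horizontal axis), coloured by the share call (red higher, blue lower, grey neither). Pold1 lies far up and left (6 and 729 counts against a coding sum of 1500 and 6) and Tpi1 down and right (5911 and 518 against 1526 and 5249).

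Tpi1, the triosephosphate isomerase of glycolysis (ENSMUSG00000023456, chromosome 6, 124787549 to 124791259, GRCm39), had the largest fold difference in count among the 10 most abundant retained-intron transcripts. Its retained-intron transcript had 5911 counts in control and 518 in stretched. The summed coding transcripts had 1526 and 5249. The retained-intron form was thus the main form in control and a minor one in stretched, falling from 79.5% to 8.98% of the sum, while all counts of the gene were 7450 and 5776. The count was 10.5-fold lower and the log2 odds ratio was -5.29 (95% counting interval -5.45 to -5.14). The model differs from the coding exons by 84 bases, 5.41% of its length, namely the intron printed above; a gene on the opposite strand overlaps Tpi1, and whether the counting used strand is not stated in the sources used here.

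The largest rise in share was in Pold1, the catalytic subunit of DNA polymerase delta (chromosome 7, 44182170 to 44198273, GRCm39). Transcript ENSMUST00000138746 had 6 and 729 counts (control and stretched), beside a coding sum of 1500 and 6. A Pold1 transcript annotated for nonsense-mediated decay had 181 and 682 counts, and the gene total was 1771 and 1541. The retained-intron share went from 0.398% to 99.2%, a log2 odds ratio of 14.7 (13.1 to 16.8). The model holds 161 bases outside coding exons. It is among the 109 matched models that held no whole coding intron and did not begin or end inside an intron.

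The other 11 transcripts with the highest lower bound of the odds ratio follow. Of these 12, with Pold1, 6 hold a whole coding intron. Zfp687, a zinc finger gene, had 21 and 425 retained-intron counts beside a coding sum of 412 and 4, so that the share was 4.85% in control and 99.1% in stretched. Shisa5, which encodes an endoplasmic reticulum protein induced by p53, had 2 and 340 counts beside an almost constant coding sum of 1264 and 1243, a rise from 0.158% to 21.5%. In these genes the coding sum fell in the first and differed little in the second. Katnip, which encodes a katanin-interacting protein, had 0 and 227 retained-intron counts and coding sums of 461 and 81. Against a floor of 3 counts in the control library the Katnip transcript was at least 82.6-fold higher. Aldh16a1, an aldehyde dehydrogenase family gene, had 0 and 211 counts (76.7-fold higher against the floor). Sfi1, which encodes a centrin-binding protein, had 0 and 145 (52.7-fold), and Pgghg, a glucosidase gene, 0 and 93 (33.8-fold). Sfi1 overlaps another expressed gene on the same strand. Nfrkb, a subunit gene of the INO80 chromatin remodeller, had 3 and 185 counts, and Xdh, the xanthine dehydrogenase that makes uric acid, 8 and 207. Rbak, a zinc finger gene named for binding the retinoblastoma protein, had 29 and 108 counts beside a coding sum that went from 146 to 2. BC003965 had 184 and 310 counts while its only coding transcript had 157 and 0, and the Tec family kinase gene Txk 158 and 293 with a coding sum of 318 and 0. For Txk the odds ratio against all other transcripts of the gene was -0.038 on the log2 scale, so its change rests on which transcripts it is set against.

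Of the 12 transcripts with the lowest upper bound, 9 hold a whole coding intron. Among these 12, Lss, the lanosterol synthase of cholesterol synthesis, had 1402 and 681 counts while its coding sum was 1 and 814. Etv3, an ETS-family transcriptional repressor, had 1399 and 262 counts beside a coding sum of 29 and 1332, a share of 98.0% in control and 16.4% in stretched. In both genes the stretched library gained coding counts where the control library had few. Rint1, which acts in tethering vesicles between Golgi and endoplasmic reticulum, had 214 and 0 counts, 65.4-fold lower against the floor, with a coding sum of 105 and 340. Cnot3, a subunit of the CCR4-NOT deadenylase, had 154 and 0 counts (47.1-fold lower against the floor) with a coding sum of 514 and 893. Timeless, a replication fork protein, had 146 and 0 (44.6-fold) with 878 and 831. A Cnot3 transcript annotated for nonsense-mediated decay also went from 277 counts to 0. The cullin gene Cul9 had 115 and 0 counts (35.1-fold lower against the floor) and Uqcc1, an assembly factor of respiratory complex III, 31 and 0 (9.47-fold). Leng8 had 1028 and 30 counts with a coding sum of 1320 and 2453, and Esyt2, a tether between endoplasmic reticulum and plasma membrane, 459 and 5 with 939 and 1479. Wdr73 had 289 and 50 counts beside a coding sum of 6 and 106, whereas another of its retained-intron transcripts, ENSMUST00000152518, had 6 and 175. Ceacam1, a cell adhesion receptor gene, had 49 and 4 counts beside a coding sum of 4 and 99. Pagr1a, a partner of histone methyltransferase complexes, had 367 and 116 counts, and the span of its gene overlaps another expressed gene on the same strand. Over both directions, the gene total stayed within 1.5-fold in 20 of these 24 genes, beside 95.8% over all compared transcripts. The exceptions were Txk (476 and 898), Xdh (134 and 233), Ceacam1 (55 and 111) and Pagr1a (370 and 223).

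**Figure D4:**
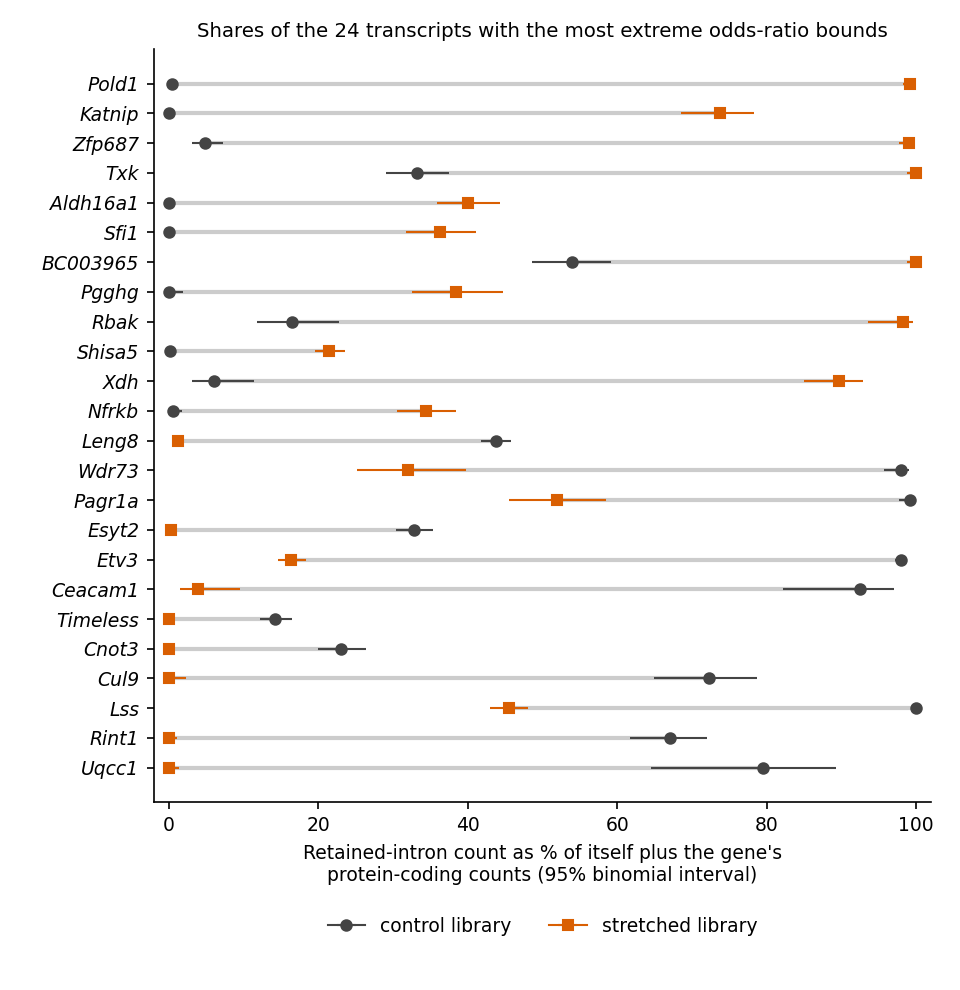
Retained-intron count as a percent of itself plus the gene's protein-coding counts (horizontal axis, with 95% binomial intervals) in the control (grey circles) and stretched (orange squares) library, for the 12 transcripts with the highest lower bound and the 12 with the lowest upper bound of the share odds ratio. The transcripts were picked for these differences, which run from 0.398% to 99.2% in Pold1 and from 79.5% to 0% in Uqcc1.

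By count alone, 4 genes join those above. Mfsd4a, of a family of membrane transporters, had 0 and 112 counts, 40.7-fold higher against the floor. Its coding sum of 164 and 306 was called higher too, and the gene total was 164 and 418. Tbc1d20, a GTPase-activating protein for Rab1, had 11 and 376 counts, while its coding sum was 1249 and 939. Akap8, a nuclear anchor of protein kinase A, had 887 and 3 counts in transcript ENSMUST00000235205, whereas another of its retained-intron transcripts, ENSMUST00000237103, had 533 and 851. Thoc7, a subunit of the THO complex that couples transcription to mRNA export, had 321 and 9 counts beside a coding sum of 484 and 546. An Akap8 transcript annotated for nonsense-mediated decay had 116 and 385, and the coding sum was 47 and 32.

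Transcripts that differ from the coding exons by few bases were called more often. The share was called in 41.7% of the 1339 transcripts with under 25% of their length outside coding exons, in 30.8% of 1583 with 25 to 50%, in 23.6% of 1475 with 50 to 75% and in 27.3% of 1029 with more. The median count in these bins was 68, 55, 57 and 52. Of the 24 transcripts of the share plot, which were picked for their differences, 12 have at most 200 bases outside coding exons. Over all matched transcripts the lower quartile was 292.5 bases. By count, the share was called in 28.0% of transcripts with 20 to 49 counts and in 34.5% of those with 1000 or more, with median absolute log2 odds ratios of 0.71 and 0.66. An expressed gene overlaps on the opposite strand in 1567 of the 5553 transcripts, among them those named for Zfp687, Aldh16a1, Cnot3, Leng8, Ceacam1, Mfsd4a and Thoc7, and on the same strand in 363. The part of read assignment in these calls was not tested.

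Few of the genes that carry out or regulate splicing were called as whole genes. Of 169 measured genes in 7 lists, 0 were called higher and 1 lower by count. The lists cover SR proteins and related genes, SR protein kinases, hnRNP proteins, and snRNP and U2AF proteins. They also cover the minor spliceosome, nonsense-mediated decay, and nuclear retention, decay and export. The called gene was U2af1l4, a relative of the small U2AF subunit, with 96 and 31 counts, 2.81-fold lower. In U2af1l4 the retained-intron transcripts had 72 and 19 of these counts and the coding sum 12 and 9, the latter called neither way. The totals of 164 of the 169 genes (97.0%) were within 1.5-fold, as were 86.7% of all 12772 genes, of which 3.12% were called higher and 1.94% lower. Their retained-intron transcripts varied more, and the counts below are to be read against the 14.4% higher and 16.5% lower in share of all retained-intron transcripts.

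SR proteins promote exon recognition. The list of SR proteins and related genes, 22 of them measured here, had 51 retained-intron transcripts. Of these, 8 were higher and 10 lower in share, with a median log2 odds ratio of -0.24. Srsf5 transcript ENSMUST00000153056 had 1080 and 1880 counts while the coding sum of the gene was 1872 and 1141. Its share was 36.6% in control and 62.2% in stretched, a log2 odds ratio of 1.51 (1.36 to 1.67), which was 0.47 against the most abundant coding transcript alone. The genes Srsf6 and Tra2a, like the called Clk1 and Clk3 transcripts below, were picked for mention after their values were seen. Srsf6 had 787 and 861 retained-intron counts and a coding sum of 4872 and 2658, and its log2 odds ratio was 1.00 (0.85 to 1.16). Tra2a, which encodes a splicing activator related to fly transformer-2, went the other way: its retained-intron transcripts together had 1164 and 432 counts and its coding transcripts 230 and 1047. The Tra2a log2 odds ratio was -3.61 (-3.88 to -3.35). Srsf3 had 1518 and 848 counts in its most abundant retained-intron transcript and Srsf2 938 and 771, neither called in share.

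Among the kinases of SR proteins, 14 retained-intron transcripts were measured, 3 higher and 2 lower in share. All 3 that were higher are from Srpk1 (chromosome 17, 28806622 to 28841683, GRCm39). They are set against the same coding sum, so they are not separate results. By count, 1 of the 14 was called higher, ENSMUST00000233440. The other Srpk1 transcripts were ENSMUST00000232882 with 63 and 92 counts and ENSMUST00000126683 with 18 and 28. Transcript ENSMUST00000233440, which keeps 1 intron of 373 bases, had 311 and 1251 counts beside a coding sum of 1484 and 640, so that its share was 17.3% and 66.2%. The log2 odds ratio was 3.22 (2.99 to 3.45), and the gene total was 2076 and 2031. A Srpk1 transcript annotated for nonsense-mediated decay had 189 and 0 counts. The CLK genes, known for transcripts with retained introns that stay in the nucleus, had 2 transcripts called, both lower in share: Clk1 ENSMUST00000123580 with 301 and 155 counts (54.0% and 27.1%) and Clk3 ENSMUST00000216192 with 29 and 19 (4.83% and 2.40%). Among the most abundant ones, not called, Clk2 had 879 and 957 counts at 83.8% and 85.4%, Clk4 219 and 259 at 36.4% and 31.1%, and another Clk3 transcript 286 and 243 at 33.3% and 23.9%. All Clk1 retained-intron transcripts together had 609 and 512 counts beside a coding sum of 256 and 416, a log2 odds ratio of -0.95.

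**Figure D5:**
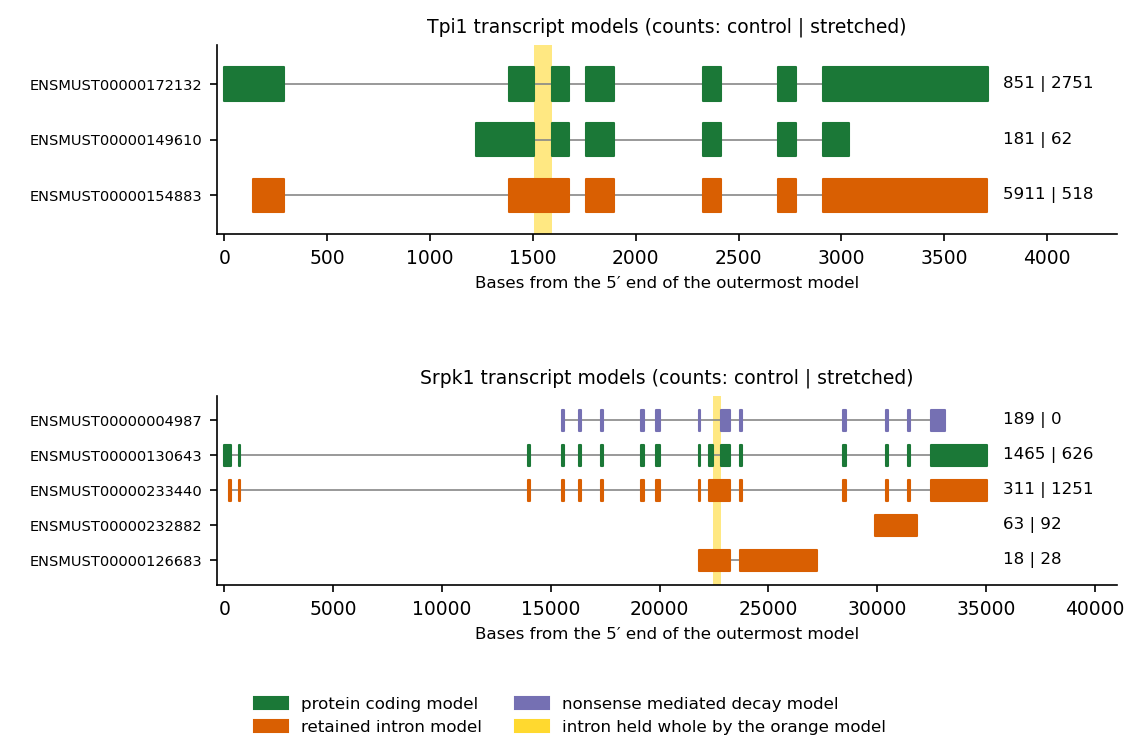
Transcript models of Tpi1 and Srpk1 with 20 or more counts and a model in GENCODE M21, drawn from the 5′ end (horizontal axis, bases), with boxes for exons and the counts in the control and stretched library at the right. Yellow marks the intron of 84 bases in Tpi1 and of 373 bases in Srpk1 that lies inside an exon of the retained-intron model (5911 and 518 counts in Tpi1, 311 and 1251 in Srpk1).

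Retained-intron transcripts of hnRNP and polypyrimidine tract proteins, which often act against nearby splice sites, were more often lower than higher in share, with 17 lower and 5 higher of 47 and a median log2 odds ratio of -0.39 against -0.071 for all. Hnrnpa2b1 transcript ENSMUST00000205204 had 1863 and 655 counts (18.1% and 7.06%), while the more abundant ENSMUST00000204885 had 3142 and 2451 and was not called. Summed per gene, 3 of 16 genes were lower in share and 1 higher, and the retained-intron share over the list was 14.1% in control and 11.96% in stretched.

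Retained-intron transcripts of the list of snRNP and U2AF proteins were 14 lower and 2 higher in share of 38, with a median log2 odds ratio of -0.44. Transcripts of the same gene share its coding sum, and Snrnp70 gave 6 of the 38. Summed per gene, 5 of 22 genes were lower in share and 1 higher. Snrnp70, the U1-specific protein, had 2218 and 1553 counts in its main retained-intron transcript beside a coding sum of 502 and 741, at 81.5% and 67.7%. Against all other transcripts of the gene the Snrnp70 log2 odds ratio was -0.80 rather than -1.08. Sf3b1, a U2 component that binds the branch point region, had 835 and 499 counts at 12.1% and 7.98%, and U2af2 498 and 432 at 14.4% and 15.6%, neither called. Ddx46, a helicase of the U2 snRNP, went the other way with 356 and 706 counts, 12.2% and 24.5%. Of these 38 transcripts 12 hold a whole coding intron, and 2 of those 12 were lower in share; of the 26 without an expressed gene on the opposite strand, 5 were.

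The smaller lists had few calls. Of 8 transcripts of minor spliceosome genes 1 was lower in share, Snrnp48 transcript ENSMUST00000223680, with 896 and 707 counts at 94.0% and 87.4%. Of 8 transcripts of nonsense-mediated decay factors 1 was lower, Rbm8a of the exon junction complex, with 42 and 16 counts. Of 34 transcripts of nuclear retention, decay and export factors 2 were higher and 4 lower in share. The RNA helicase gene Ddx39b, which acts in splicing and export, had 1638 and 1216 counts at 28.2% and 25.9%, and its paralog Ddx39a 859 and 463 at 45.2% and 29.5%; neither was called. Exosc5, an exosome subunit gene, had 226 and 373 counts at 32.8% and 45.7%, also not called.

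Interferon-stimulated genes were higher as genes in the stretched library, with 46 of 77 measured called higher and 0 lower. Over all genes 3.12% were called higher and 1.94% lower. Retained-intron transcripts of the interferon-stimulated genes were higher in count as well. Of 39 such transcripts (28 genes), 20 were called higher and 3 lower, beside 12.9% and 14.9% of all retained-intron transcripts. Their median log2 difference was 1.01 against -0.054 for all retained-intron transcripts. In share they were 5 higher and 11 lower, with a median log2 odds ratio of -0.16. Their shares over the list were 12.5% in control and 9.29% in stretched. Oas1g, an oligoadenylate synthetase that senses double-stranded RNA, had 98 and 230 retained-intron counts and a coding sum of 502 and 851, and the shares of 16.3% and 21.3% were not called. The following genes were picked after their values were seen. Irf7, the transcription factor of the type I interferon response, had 46 and 165 retained-intron counts beside 74 and 785 coding counts, and Ifi44 16 and 16 beside 267 and 1701. Oas2 had 23 and 21 retained-intron counts beside 581 and 2088, so for Ifi44 and Oas2 the coding sum was called higher and the retained-intron count neither way. Tap1, a peptide transporter for antigen presentation, had 57 and 130 retained-intron counts beside 375 and 407 coding counts, with a log2 odds ratio of 1.06 (0.56 to 1.59). Irf9, with 158 and 111 counts, was lower in share (30.2% and 13.2%), but its log2 odds ratio was -0.28 against the most abundant coding transcript alone.

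Ribosomal protein genes had 139 retained-intron transcripts in 60 genes. By count 6 were higher and 33 lower (median log2 difference -0.60), beside 12.9% higher and 14.9% lower over all retained-intron transcripts. By share 10 were higher and 30 lower (median log2 odds ratio -0.47), beside 14.4% and 16.5% of all. Transcripts of the same gene share its coding sum and are not separate results. Summed per gene, 2 of the 60 genes were higher in share and 9 lower, and 1 was higher and 8 lower in count. None of 81 ribosomal protein genes was called as a gene, and their median log2 difference was -0.23. Rpl3 had 6086 and 1787 counts in its main retained-intron transcript beside a coding sum of 9507 and 9543, 39.0% and 15.8%; another gene on each strand overlaps it. Rps13 had 3981 and 2257 counts (80.0% and 58.3%). Rpl10a, whose first intron is shown above, had 8679 and 5369 counts beside a coding sum of 165 and 491, and its log2 odds ratio of -2.26 was -0.75 against all other transcripts. The retained-intron transcripts of Rpl10a together had 11938 and 8208 of the gene's 12256 and 9086 counts.

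Genes of glycolysis and of the HIF response had 23 retained-intron transcripts, 2 higher and 3 lower in share. Beside Tpi1, Pkm, the last kinase of glycolysis, had 1400 and 1098 counts at 1.68% and 1.31%, Gapdh 1299 and 742 at 7.61% and 5.48%, and Pfkp 1283 and 1378 at 26.5% and 30.0%. None of these 3 was called. Of the 5 retained-intron transcripts of macrophage marker genes, 2 were higher in share: Csf1r, the receptor for macrophage colony-stimulating factor, had 55 and 294 counts beside a coding sum of 25129 and 23934, and Ptprc, the leukocyte phosphatase CD45, 544 and 1052 beside 4874 and 3089. Cd14, a lipopolysaccharide co-receptor, had 580 and 669 counts at 5.08% and 5.16%. Csf1r overlaps an expressed gene on the opposite strand. Both Lck transcripts, of a T cell kinase gene, had 18 counts or fewer in each library.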

How the data were processed

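The series has 1 control and 1 stretched library. Per the labels' protocols, poly(A) RNA was made into strand-marked (dUTP) libraries, and the submitters' processing notes name StringTie and GRCm39; the sources used here do not give aligner, versions or strand setting. Columns marked Con were taken as the library titled NC, and the tensile columns as the library titled Tensile. The deposited tables give estimated counts and FPKM per transcript and gene. The authors' estimated counts are coverage estimates rounded up: 99.4% of control and 99.5% of stretched values lay within 0.05 of the range this gives from FPKM and length. They were used as deposited.

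Counts were scaled with edgeR 4.0.16 TMM factors (R 4.3.3); log2 differences use a prior of 0.5 counts, and odds ratios add 0.5 to each of the 4 counts. Intervals are exact conditional 95% intervals, and fits were done with Python 3.11.15 and scipy 1.17.1. Intervals cover counting error only. The floor of 3 counts stands in for a library with no counts and leaves out the counting error of the other library. The calling rules were run on simulated counts with counting error only. The simulation held no variation between cultures and no division of reads among overlapping models, so it cannot speak to either. Models came from GENCODE M21 by transcript identifier and equal length; gene spans are the deposited GRCm39 ones.

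The transcripts and the 13 gene lists were chosen with earlier results of these data known. Named transcripts were the 10 with the highest count; with 100 or more coding counts in the gene, the 12 highest and 12 lowest by share bound; with 100 or more counts, the 8 highest and 8 lowest by count bound; up to 4 per list by count; and called factor genes; some of these are not reported here. Alternatives were other scalings (DESeq2 1.42.0, library totals), unrounded counts, a prior of 5, log2(FPKM + 1), other count minimums, other comparators and restricted sets of transcripts.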

Additional observations from a re-analysis of the deposited data

Results flagged for a closer look

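Transcripts that carry no gene annotation in the deposited table, and so no biotype, were outside every comparison above. They held 7.38% of counts in control and 6.31% in stretched, more than the retained-intron transcripts. Whether any of them retain introns was not analysed here.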

How the results depend on the processing

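No paired analysis was possible because each condition had 1 library, and for the same reason no replicate could be left out. The limits on transcript structure and on opposite-strand overlap were added after seeing the data. Over all alternatives run, the median of the count measure lay between -0.096 and 0.13, against -0.054 in the main setting. Its sign thus depended on the setting. The median of the share measure lay between -0.11 and -0.030. These shifts were smaller than the typical counting half-width of a single transcript. That width is too wide a yardstick to test a median over many transcripts. On the log2(FPKM + 1) scale, where low levels change less, 261 transcripts were higher and 284 lower, with 545 of the 1541 calls made alike, 5 interferon-stimulated transcripts higher and 20 ribosomal ones lower. With a minimum of 100 counts, 221 of 1800 were higher and 259 lower in count, and 272 and 324 of 1777 in share. Restricted to transcripts with a whole coding intron, 380 of 2656 were higher and 377 lower in count and 436 and 426 of 2636 in share, with 17 of 78 ribosomal transcripts lower in count and 2 of 12 snRNP and 6 of 16 hnRNP transcripts lower in share. Summed per gene, 439 of 3440 genes were higher in share and 464 lower, with 5 of 22 snRNP and 3 of 16 hnRNP genes lower. With 300 or more bases outside coding exons, 13 of 71 ribosomal transcripts were lower in count and 7 of 27 hnRNP transcripts in share. Without an opposite-strand overlapping gene, 5 of 26 snRNP and 10 of 32 hnRNP transcripts were lower in share. Fewer transcripts are tested in each restricted set, but the percentages of snRNP (36.8% of all 38 against 16.7% and 19.2%) and ribosomal transcripts fell too, and the cause was not tested. Of 608 values of named transcripts under the alternatives, 581 kept direction and side of the threshold or moved less than the counting error, 18 moved, 6 fell below and 2 passed the threshold. The share of Txk turned to -0.038 against all other transcripts of the gene; the cause was not tested. Counts under 10 in a library, in 431 transcripts in control and 634 in stretched, limit the precision of the ratios.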
